A study of Homo sapiens with 4 samples.

Results

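The transcripts described here are those of 9 genes of the RAS to ERK pathway: the GTPase genes NRAS and HRAS, the kinase gene BRAF, and 6 genes whose transcription rises when ERK is active, namely the phosphatase genes DUSP4 and DUSP6, the inhibitor genes SPRY2, SPRY4 and SPRED1, and PHLDA1. They were taken by name from a table of 61541 Ensembl genes, and all 9 were present and passed the filter on low counts that left 16863 genes to test. The RNA came from MHCC97H, an established human hepatocellular carcinoma (HCC) line, in 4 libraries. Control cells (shCon) gave 2 of them and cells with a short hairpin RNA against UBXN1 (shUBXN1) gave the other 2, and the labels name no other treatment. By the study's methods hairpins were cloned in pLKO.1, and the control is called shRFP there and shCon in the labels. Which of the designed UBXN1 hairpins was used for these libraries is not given in the sources used here, so an effect of 1 hairpin cannot be told apart from loss of UBXN1.

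RAS proteins are small GTPases that switch on when receptors at the cell surface recruit exchange factors, and they pass the signal to the RAF kinases, then to the MEK kinases and to ERK. Active ERK drives genes that restrain the same cascade. DUSP4 and DUSP6 remove phosphate from ERK, Sprouty and SPRED proteins act at or above RAF, and PHLDA1 is transcribed along with them. For that reason these transcripts are widely used as a readout of ERK output in tumour cells. The study also used mouse tumours driven by NRas with c-Myc and mouse cells with HRas, neither of which is in these libraries. RNA levels do not measure RAS loading or ERK phosphorylation.

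The libraries held 23373700 to 27380508 counts. UBXN1 itself had 1788 and 1817 counts in shCon and 416 and 433 in shUBXN1, and its log2 fold change was -2.03 (standard error 0.0963, edgeR adjusted p = 9.98e-10), so the targeted transcript was low in both libraries labelled as knockdown. Keratins of liver epithelium were abundant, with KRT8 at 2993 to 4059 TPM (a gene's counts per base of its deposited length, scaled to the same total in every library) and KRT18 at 1283 to 1767 TPM, and HNF4A was at 21.4 to 25.8 TPM. Albumin was low, at 16.0 and 14.8 TPM in shCon and 3.99 and 4.21 TPM in shUBXN1, and GPC3, a marker of many HCCs, had 0 counts in every library, so few defining hepatocyte genes were abundant. The 11 hepatocyte markers summed to 5400 and 5450 TPM in shCon and 4637 and 5053 TPM in shUBXN1, but the keratins KRT8 and KRT18 make up nearly all of that sum. Markers of hepatocyte secretion moved with the knockdown: in edgeR the log2 fold change was -1.97 for ALB, -1.85 for APOB, -3.08 for TTR (3 and 5 counts in shUBXN1) and -4.02 for FGB, all called lower, while SERPINA1 was called higher (0.40) and AFP and APOA1 did not pass. Leukocyte markers summed to 83.5 to 103 TPM, nearly all of it CD68, with 4 of 5 under 1 TPM and CD3E at 0, and fibroblast markers to 24.55 and 25.1 TPM in shCon and 12.8 and 13.9 TPM in shUBXN1, with 5 of 6, all but LUM, under 1 TPM. The 4 endothelial markers summed to 15.2 and 15.25 TPM in shCon and to 31.9 and 32.1 TPM in shUBXN1, mostly KDR and PECAM1, with CDH5 and VWF under 1 TPM. The 2 erythroid markers summed to at most 1.23 TPM. The part of these markers in the results was not tested. Mitochondrial transcripts took 5.28% and 5.59% of counts in shCon and 7.43% and 8.27% in shUBXN1. In bulk RNA, fewer cells with a transcript and less of it per cell cannot be told apart.

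After UBXN1 knockdown 4 of the 9 transcripts fell (PHLDA1, SPRY2, SPRY4 and HRAS), 1 rose (BRAF), and NRAS, DUSP4, DUSP6 and SPRED1 did not pass an adjusted p of 0.05 in the quasi-likelihood test of edgeR, adjusted by Benjamini-Hochberg over all genes tested. PHLDA1 changed most, to 59.5% of the control level. No member reached a fold change of 2, the size the study asked for, in edgeR or in DESeq2. In this comparison 56.2% of all genes tested passed the same threshold, with 28.0% of all genes higher and 28.2% lower in shUBXN1, so 5 of 9 members (55.6%) is close to the share among all genes and is no result about the members. Likewise 17.9% of all genes passed a fold change of 2 at an unadjusted p under 0.05 (11.8% higher, 6.09% lower), against 0 of 9 members. At an unadjusted p under 0.05 alone, 6 members passed in edgeR, DUSP4 being the added one. The share of all genes past that threshold was not counted. DESeq2 passed 4 members at an adjusted p under 0.05, beside 3851 genes higher and 4109 lower of 16863 tested. The median log2 fold change was -0.17 over the 9 members and 0.016 over all genes tested. With total count scaling these medians were -0.091 and 0.10, and with the GC trend removed they were -0.29 and -0.060. The groups did not overlap for 7 of 9 members, beside 78.0% of all genes. Among these 7, BRAF was higher (39.4% of all genes were) and 6 were lower (38.6% of all genes were).

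**Figure D1:**
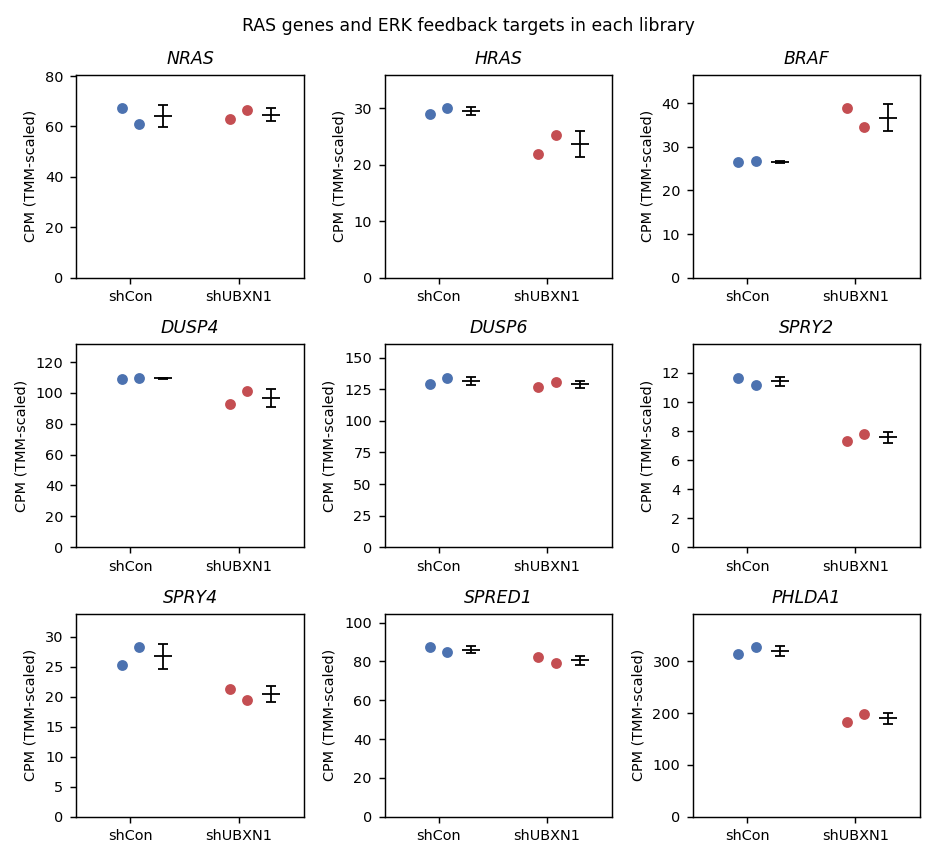
Level of each member in every library, in CPM (counts scaled to a common library size after edgeR's TMM scaling, not per length), with vertical axes from 0. Points are single libraries, and the black mark to their right is the mean with the SD of 2 libraries. PHLDA1 stood at 313.6 and 327 CPM in shCon and at 183 and 198 CPM in shUBXN1, and DUSP6 at 127 to 134 CPM in all 4.

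PHLDA1 encodes a protein with a pleckstrin homology-like domain and is a transcriptional readout of ERK. Its position is chromosome 12, 76025447 to 76031776, minus strand (GRCh38, as are all positions given). Its level was 313.6 and 327.0 CPM in shCon and 182.9 and 198.1 CPM in shUBXN1. Both knockdown libraries were far below both controls, and the gap was wider than the spread within either group. The log2 fold change was -0.75 (standard error 0.0763, 95% interval -0.91 to -0.59, edgeR adjusted p = 1.37e-06). It stayed between -0.82 and -0.67 over all alternatives, and passed the threshold in each. PHLDA1-AS1, on the opposite strand, covers 9.35% of the exon bases of PHLDA1 and had 0 counts in every library.

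The Sprouty genes encode inhibitors that act between receptors and RAF, and in TPM they stood far lower than PHLDA1. SPRY2 (chromosome 13, 80335976 to 80341126, minus strand) had 311 and 263 counts in shCon and 181 and 183 in shUBXN1. In CPM these were 11.7 and 11.2 against 7.31 and 7.82, so the groups were apart. SPRY2 fell by 0.60 on the log2 scale (standard error 0.143, edgeR adjusted p = 0.00266), to 66.2% of control, and passed the threshold under every alternative run. SPRY4 (chromosome 5, 142310427 to 142326455, minus strand) was at 25.2 and 28.2 CPM in shCon and at 21.3 and 19.4 CPM in shUBXN1. Its groups were also apart, but the libraries of each group differed more. SPRY4 fell by 0.39 on the log2 scale (standard error 0.103, edgeR adjusted p = 0.00528). Without the second shCon library the change was -0.32 and no longer passed (edgeR adjusted p = 0.0773), and with limma on log2(TPM + 1) it was -0.30 (adjusted p = 0.0922), against an adjusted p of 8.72e-06 to 0.0922 over all alternatives.

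The bases before the start of 3 of these genes are shown because PHLDA1 and SPRY2 fell furthest and DUSP6, described next, gave no call. The sequences are RefSeq's (GRCh38.p14), cover the 250 bases upstream of the start, and are read 5′ to 3′ on the gene's strand. Capitals mark CCGGAA, called the ETS core here, and TGACG, the first part of the cyclic AMP response element, on either strand. CCGGAA is among the forms of the element bound by ETS factors that ERK phosphorylates, and other forms were not searched for.
PHLDA1 (chr12:76031777-76032026, minus strand): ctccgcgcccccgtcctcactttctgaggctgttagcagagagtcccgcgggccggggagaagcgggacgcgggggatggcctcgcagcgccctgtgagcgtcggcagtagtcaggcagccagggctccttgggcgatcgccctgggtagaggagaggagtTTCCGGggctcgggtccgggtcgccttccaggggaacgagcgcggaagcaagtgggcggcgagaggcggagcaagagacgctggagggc
SPRY2 (chr13:80341127-80341376, minus strand): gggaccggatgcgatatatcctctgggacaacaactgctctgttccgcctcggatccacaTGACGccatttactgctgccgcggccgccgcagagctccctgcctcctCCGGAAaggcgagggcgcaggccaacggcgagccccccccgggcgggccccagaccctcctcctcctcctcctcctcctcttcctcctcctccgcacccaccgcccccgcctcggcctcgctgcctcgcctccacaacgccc
DUSP6 (chr12:89352502-89352751, minus strand): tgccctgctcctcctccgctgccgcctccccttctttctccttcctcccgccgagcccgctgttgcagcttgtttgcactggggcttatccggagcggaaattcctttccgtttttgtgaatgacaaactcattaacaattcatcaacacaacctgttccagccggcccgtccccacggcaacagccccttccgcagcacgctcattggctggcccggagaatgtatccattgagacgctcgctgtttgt
The PHLDA1 sequence held 1 ETS core, read on the other strand and so printed as TTCCGG, beginning at -89 from the start, and the SPRY2 sequence held 1 at -142 and a TGACG at -190. Neither string was found in the DUSP6 sequence. The DUSP6, PHLDA1 and SPRY2 sequences each hold the shorter GGAA outside any marked stretch, in SPRY2 only on the other strand, as TTCC. This shorter form was not searched for. SPRY2 has 3 listed windows, and the one at the canonical start in GENCODE is shown. Over the whole windows, which run 50 bases further into the gene and were found for 8 of the 9 members, the ETS core was present in PHLDA1, SPRY2, HRAS and NRAS, which is 4 of 8 windows, and in 17.5% of the 27305 promoter windows of the same length. TGACG was present in SPRY2, SPRY4 and BRAF, and in 24.6% of all windows. The AP-1 element TGANTCA, the full element TGACGTCA and the CArG box of serum response factor were in none of the 8 windows, and in 7.90%, 1.94% and 1.31% of all. Also searched for were GGGCGG, in 6 of the 8 windows and 43.8% of all, and CACGTG, in 1 of the 8 and 7.28% of all. TGACG is part of TGACGTCA, so these searches overlap, and the windows of BRAF and SPRY4 lie 661 and 774 bases from the canonical start. The ETS core was thus in the windows of 3 of the 4 transcripts that fell, not in that of SPRY4, and in that of NRAS, which gave no call. The windows of all genes, 1 a gene, were taken by lowest coordinate, and those of the members by nearness to the canonical start. GC content was not matched, so the shares of all windows are only a rough background and were not tested against. A match is a description of letters, not a binding site.

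DUSP6, the cytoplasmic ERK phosphatase and a standard readout of ERK activity, gave no call. It lies at 89347235 to 89352501 on chromosome 12 (minus strand). It stood at 129.3 and 134.0 CPM in shCon and at 127.1 and 130.6 CPM in shUBXN1. The ranges of the groups overlapped. The log2 fold change was -0.031 with a 95% interval of -0.18 to 0.12 (edgeR adjusted p = 0.739), so a fall like that of PHLDA1 lies outside the interval. The sign turned to 0.054 with total count scaling and to 0.028 with limma on log2(TPM + 1), neither past the threshold. An antisense lncRNA gene, ENSG00000274021, covers 28.6% of the exon bases of DUSP6 but had 26.8 to 40.8 counts beside 3057 to 3447 for DUSP6. In TPM the ratio of PHLDA1 to DUSP6 was 1.488 and 1.497 in shCon and 0.882 and 0.930 in shUBXN1, so PHLDA1 was the higher of these 2 transcripts in each control library and the lower in each knockdown library.

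DUSP4, the nuclear phosphatase of ERK (chromosome 8, 29333064 to 29350684, minus strand), was at 109.0 and 109.7 CPM in shCon and at 92.7 and 101.0 CPM in shUBXN1. Both knockdown libraries were below both controls by a small margin. The log2 fold change was -0.17 (95% interval -0.33 to -0.015) and missed the threshold (edgeR adjusted p = 0.0591). It depended on settings: the change was -0.25 and passed without the second shUBXN1 library (edgeR adjusted p = 0.00278), was -0.29 and passed once the GC trend of each library was removed (edgeR adjusted p = 0.0083), and was -0.091 with total count scaling. With the replicate number as a block it was -0.18 and passed (edgeR adjusted p = 0.0351). SPRED1, a membrane-bound inhibitor that brings the RAS GTPase-activating protein neurofibromin to RAS (chromosome 15, 38252836 to 38357249, plus strand), was at 87.2 and 84.7 CPM in shCon and at 82.3 and 78.9 CPM in shUBXN1. Its log2 fold change of -0.092 (95% interval -0.25 to 0.064) did not pass (edgeR adjusted p = 0.301).

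Among the RAS genes, HRAS (chromosome 11, 532242 to 537321, minus strand) was at 29.0 and 30.0 CPM in shCon and at 22.0 and 25.3 CPM in shUBXN1. The groups were apart, and the knockdown libraries differed from each other more than the controls did. HRAS fell by 0.32 on the log2 scale (standard error 0.0993, edgeR adjusted p = 0.0140). This call was the least stable of the 5: the change was -0.31 and missed the threshold without the second shCon library (edgeR adjusted p = 0.0829), was -0.22 and missed it without the first shUBXN1 library (edgeR adjusted p = 0.0727), and was also lost with total count scaling (-0.23, edgeR adjusted p = 0.0506) and in DESeq2 (-0.32, adjusted p = 0.0516). HRAS is rich in GC (62.7% of its longest transcript), and after removal of the GC trend its change was -0.66. NRAS (chromosome 1, 114704469 to 114716771, minus strand) was at 67.2 and 61.0 CPM in shCon and at 63.0 and 66.5 CPM in shUBXN1. The groups overlapped, and the log2 fold change of 0.013 had a 95% interval of -0.16 to 0.18 (edgeR adjusted p = 0.906). Its sign turned to -0.070 without the second shCon library and to -0.042 without the second shUBXN1 library, neither past the threshold.

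BRAF, the RAF kinase with the strongest activity toward MEK, was the only member to rise. It lies at 140719327 to 140924929 on chromosome 7 (minus strand) and was at 26.4 and 26.7 CPM in shCon and at 38.8 and 34.5 CPM in shUBXN1. Both knockdown libraries were above both controls, with a gap wider than the spread within either group. The log2 fold change was 0.46 (standard error 0.0920, edgeR adjusted p = 6.28e-04), and it passed under every alternative, between 0.37 and 0.55. NDUFB2, a complex I gene on the opposite strand, covers 5.29% of the exon bases of BRAF, and its counts were also higher in shUBXN1 (1106 and 1133) than in shCon (899 and 830). Whether reads were counted by strand is not given in the sources used here, and BRAF has a processed pseudogene, so the size of its rise is uncertain. The part of NDUFB2 reads in it was not tested.

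**Figure D2:**
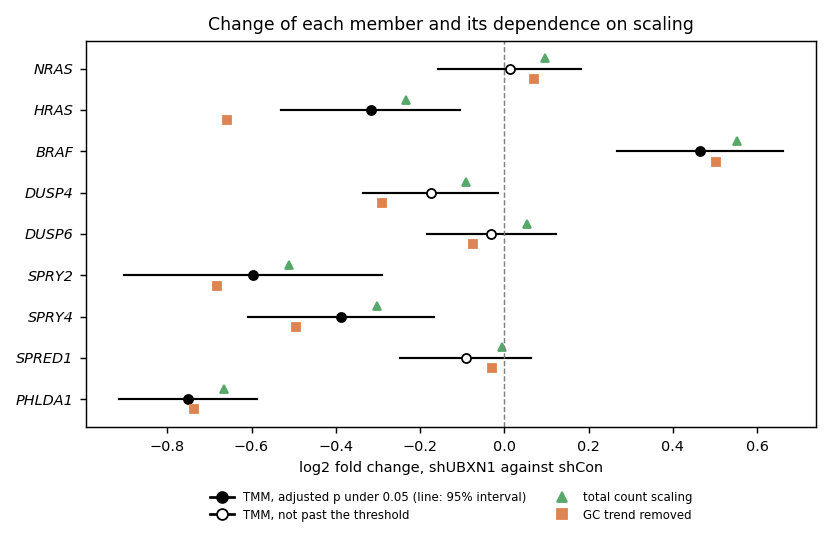
Log2 fold change of each member (horizontal axis, shUBXN1 against shCon). Circles are edgeR estimates after TMM scaling with 95% intervals, filled where the adjusted p was under 0.05. Triangles are estimates with total count scaling and squares those with the GC trend of each library removed. BRAF alone lies to the right of 0 under all 3 with its interval clear of 0, and HRAS moves furthest between them, from -0.23 to -0.66.

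Levels of different genes were compared in TPM, which divides by the deposited gene length. In shCon the order was PHLDA1 (109 ± 0.905 TPM, SD, n = 2), DUSP6 (72.8 ± 0.3001), HRAS (55.2 ± 0.170), DUSP4 (39.5 ± 0.659), NRAS (29.7 ± 2.64), SPRED1 (23.7 ± 0.981), SPRY4 (10.8 ± 0.614), SPRY2 (10.03 ± 0.504) and BRAF (5.44 ± 0.0740). In shUBXN1 DUSP6 (74.2 ± 2.50 TPM) came before PHLDA1 (67.2 ± 0.258), and BRAF (7.83 ± 1.06) before SPRY2 (6.91 ± 0.0382). SPRY2 (10.39 and 9.67 TPM) and SPRY4 (10.4 and 11.3 TPM) nearly met in shCon. In shUBXN1 the libraries of BRAF (8.58 and 7.08 TPM) overlapped those of SPRY4 (9.37 and 7.92 TPM), so these neighbours do not differ beyond their spread. The deposited lengths are shorter than the full exon set of some genes. With the exon bases of GENCODE 44 in their place, DUSP4 and NRAS came before HRAS in shCon. In shUBXN1 NRAS, DUSP4 and SPRED1, in that order, came before HRAS, and SPRY2 came before BRAF. PHLDA1 and DUSP6 kept the first 2 ranks in both groups. The summed TPM of the 9 members in shUBXN1 was 0.848 of that in shCon.

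The members were also set beside their paralogs in TPM. The ratio of HRAS to NRAS was 1.743 and 1.985 in shCon and 1.41 and 1.54 in shUBXN1, so it was lower in both knockdown libraries. Its size depends on the deposited lengths, and by exon bases NRAS came before HRAS in both groups. BRAF stood far below its paralog ARAF in every library. The ratio of BRAF to ARAF was 0.0821 and 0.0771 in shCon and 0.203 and 0.167 in shUBXN1, with the groups apart. The ratio of SPRY2 to SPRY4 was 0.998 and 0.858 in shCon and 0.741 and 0.869 in shUBXN1, and here the groups overlapped.

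**Figure D3:**
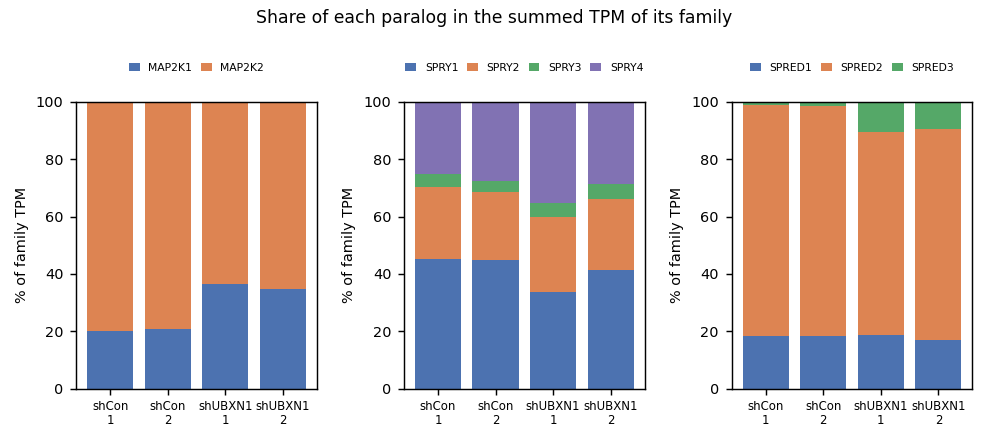
Share of each paralog (vertical axis, percent of summed TPM by the deposited gene length) in each of the 4 libraries, for the MEK, Sprouty and SPRED genes. The share of SPRY2 among Sprouty genes was 23.7% to 26.2% in all 4, and that of SPRED3 among SPRED genes was 1.05% and 1.405% in shCon and 10.4% and 9.45% in shUBXN1. By the exon bases of GENCODE 44, SPRED3 took 2.29% and 3.05% in shCon against 19.8% and 18.7% in shUBXN1.

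Of 5 kinase genes of the cascade described here, 2 were higher and 2 lower at an adjusted p under 0.05 in edgeR, where 28.0% of all genes were higher and 28.2% lower. Those shares of all genes stand behind the edgeR count of every list that follows, and no list was tested against them. They do not apply to counts under the alternatives. With the GC trend removed, 3957 of 16830 genes were higher and 5402 lower. Of 16863 genes, these were 5000 and 5023 with the replicate block and 5324 and 3969 with total count scaling. They were 3851 and 4109 in DESeq2 and 4742 and 3998 with limma on log2(TPM + 1). With 1 library left out the numbers among all genes differed too. The median log2 fold change of the kinase genes was -0.091, but it was -0.40 with the GC trend removed (2 higher, 3 lower) and -0.0069 with total count scaling. ARAF fell from 78.1 and 84.1 CPM to 46.3 and 50.1 CPM (log2 fold change -0.75, edgeR adjusted p = 2.04e-06). MAP2K1, which encodes MEK1, rose from 52.9 and 56.4 CPM to 91.6 and 97.9 CPM (log2 fold change 0.79, edgeR adjusted p = 8.60e-07), whereas MAP2K2, which encodes MEK2, fell by 0.31 on the log2 scale. MAP2K1 thus went from 20.1% and 20.9% to 36.6% and 34.8% of the MEK transcripts in TPM by the deposited lengths, and from 29.5% and 30.6% to 49.0% and 47.0% by exon bases. The ERK1 gene MAPK3 had a log2 fold change of -0.091 (edgeR adjusted p = 0.361), which passed with the GC trend removed (-0.40). An antisense lncRNA gene, ENSG00000261351, covers 20.5% of the exon bases of MAP2K1 and had 27.6 to 33.4 counts. MAP2K2 missed the threshold without the second shCon library (-0.31). Of 5 RAS subfamily GTPase genes, RRAS2 rose from 46.9 and 44.7 CPM to 66.5 and 78.3 CPM (log2 fold change 0.66, edgeR adjusted p = 1.88e-05), HRAS fell, and NRAS, RRAS and MRAS did not pass, though RRAS did with the GC trend removed (-0.51).

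Among the Sprouty and SPRED genes, 6 of 7 were lower in both shUBXN1 libraries than in both controls, where 38.6% of all genes tested were. These include the members SPRY2, SPRY4 and SPRED1, and without them 3 of 4 were. In edgeR 4 passed as lower and 1 as higher, with a median log2 fold change of -0.39, and 2 passed as lower without the second shCon library or with limma on log2(TPM + 1), where the median was -0.21. SPRY1, like SPRY2 an inhibitor below receptors, fell from 23.9 and 24.1 CPM to 10.7 and 14.7 CPM (log2 fold change -0.92, edgeR adjusted p = 4.63e-05). SPRY3 was low (2.06 to 3.04 CPM) and did not pass. SPRED2 fell by 0.20 on the log2 scale (edgeR adjusted p = 0.0396), a call lost with either shCon library left out (-0.17 without the first and -0.24 without the second) or without the first shUBXN1 library (-0.14). SPRED3 went the other way, with a larger log2 fold change than any member. It had 89 and 102 counts in shCon and 763 and 690 in shUBXN1. It rose from 3.34 and 4.34 CPM to 30.8 and 29.5 CPM, 7.88-fold (log2 fold change 2.98, standard error 0.139, edgeR adjusted p = 8.30e-10). By the deposited lengths the 4 Sprouty genes summed to 41.2 and 40.9 TPM in shCon and 26.5 and 27.6 TPM in shUBXN1. The 3 SPRED genes summed to 133 and 125 TPM and to 132 and 128.5 TPM. SPRED2, with a deposited length of 1365 against 5505 exon bases, made up 80.6% and 80.2% of the SPRED sum in shCon. By exon bases its share there was 52.5% and 51.9%, so the SPRED sum depends on the lengths used.

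Of the 10 MAPK phosphatase genes 3 were higher and 2 lower in edgeR, near the 28.0% and 28.2% of all genes. Their median log2 fold change was 0.088, and it turned to -0.060 with the GC trend removed (3 higher, 4 lower) and was 0.0068 without the second shUBXN1 library. DUSP1, induced by many stresses as well as by ERK, rose from 13.4 and 14.6 CPM to 17.6 and 24.7 CPM (log2 fold change 0.59, edgeR adjusted p = 0.00300), a change that was 0.32 without the second shUBXN1 library and 0.81 without the first, and passed in both. DUSP8, which acts mainly on the stress kinases JNK and p38, rose by 0.96, and by 0.50 to 1.05 over all alternatives. DUSP10 rose by 0.39, a call lost in DESeq2 (0.39) and with limma on log2(TPM + 1) (0.42). Its change was 0.20 without the second shCon library and 0.33 without the second shUBXN1 library. DUSP2 fell from 3.30 and 3.24 CPM to 1.54 and 1.97 CPM (log2 fold change -0.90, edgeR adjusted p = 0.0177), a call lost without the first shCon library (-0.89) and without the first shUBXN1 library (-0.74). DUSP16 fell by 0.30 on the log2 scale, a call lost with limma on log2(TPM + 1) (-0.23, adjusted p = 0.0848). DUSP5, the nuclear ERK phosphatase, had a log2 fold change of 0.21 and just missed the threshold (edgeR adjusted p = 0.0512). Among the alternatives it passed with total count scaling (0.29), with limma on log2(TPM + 1) (0.26) and with the replicate block (0.20). It did not pass in DESeq2 (0.21). The change of DUSP5 ran from 0.078 to 0.31 with 1 library left out and from 0.018 to 0.31 over all alternatives. DUSP7 (0.21) and DUSP9 (-0.46) did not pass, though DUSP9 did with the GC trend removed (-0.90). In DESeq2 3 of the 10 passed, without DUSP2 and DUSP10. With the replicate number as a block 8 of the 10 passed, against 5 without it.

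Members make up 5 of the 10 genes of a known score of ERK output, the others being CCND1, EPHA2, EPHA4, ETV4 and ETV5. EPHA4 had 2 to 6 counts and was not tested. Of the remaining 9, 6 were lower and 1, ETV5, was higher at an adjusted p under 0.05 in edgeR, beside 28.2% and 28.0% of all genes. Without the members, 3 were lower and 1 higher of 4 tested. The median log2 fold change was -0.21, and it was -0.49 with the GC trend removed (7 lower) and -0.12 with total count scaling (4 lower). Without the second shCon library 3 of the 9 passed, in place of 7, and without the first 5 did. ETV5, an ETS factor, rose from 70.6 and 71.7 CPM to 95.9 and 106 CPM (log2 fold change 0.51, edgeR adjusted p = 6.45e-05), while its relative ETV4 fell by 0.31, a call lost without the second shCon library (-0.31). The cyclin gene CCND1 fell by 0.20 and the receptor gene EPHA2 by 0.21, and both calls were lost with either shCon library left out, at -0.21 and -0.20 without the first and at -0.20 and -0.24 without the second. CCND1 was also lost without the first shUBXN1 library (-0.13).

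Some of 15 other transcripts that ERK can induce changed more than any member, and the rest changed less than PHLDA1. In edgeR 5 of the 15 were higher and 7 lower. Their median log2 fold change of -0.056 turned to 0.026 with total count scaling, to 0.013 without the second shCon library and to 0.063 without the first shUBXN1 library, and was -0.285 with the GC trend removed. EGR1, an immediate early factor, had 994 and 1145 counts in shCon and 123 and 153 in shUBXN1, and fell by 2.90 on the log2 scale (standard error 0.152, edgeR adjusted p = 2.49e-09). The EGFR ligand gene EREG fell from 84.4 and 82.9 CPM to 19.1 and 20.3 CPM, a log2 fold change of -2.09. The factor gene KLF2 fell from 10.7 and 13.2 CPM to 2.91 and 3.075 CPM. PHLDA2 fell by 1.15 and MYC by 1.04 on the log2 scale. On the other side, LIF rose from 23.7 and 27.7 CPM to 78.2 and 78.9 CPM (log2 fold change 1.62), VGF rose by 1.67, and IL11, at 6 to 16 counts in shCon and 31 and 62 in shUBXN1, rose by 2.13. FOSL1, another readout of sustained ERK activity, had a log2 fold change of -0.037 (edgeR adjusted p = 0.734). Most of these genes also answer to pathways other than ERK.

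**Figure D4:**
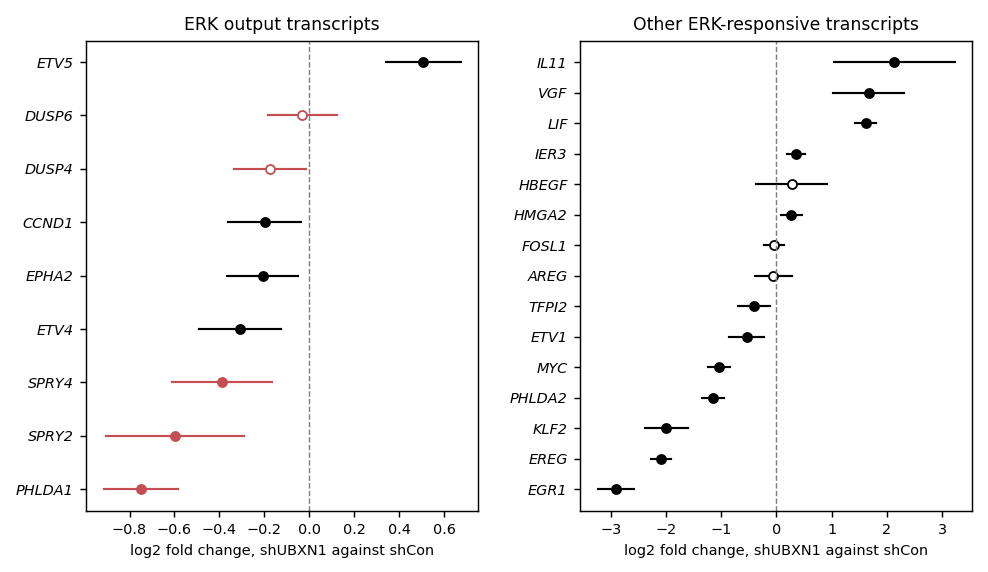
Log2 fold change with 95% interval (horizontal axes, on different scales in the 2 panels) for the ERK output transcripts tested (left) and other ERK-responsive transcripts (right). Members are drawn in red, and filled circles mark an adjusted p under 0.05 in edgeR. On the left ETV5 lies at 0.51 and PHLDA1 at -0.75, and on the right EGR1 lies at -2.90 and IL11 at 2.13.

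Upstream, the exchange factors and adaptors that load RAS had 6 genes higher and 2 lower of 12 tested, with a median log2 fold change of 0.24, beside 28.0% and 28.2% of all genes. With either shCon library left out 5 of the 12 passed, and without the second shUBXN1 library 4 were higher and 4 lower. The median was 0.11 without the first shUBXN1 library and 0.079 over the 10 genes with at least 10 counts in every library. GRB2, the adaptor between receptors and the exchange factor SOS, fell by 0.41, and the phosphatase gene PTPN11, which encodes SHP2, by 0.20, the latter lost with either shCon library left out (-0.17 without the first and -0.25 without the second). RASGRF1 (12 and 5 counts in shCon, 47 and 53 in shUBXN1) and RASGRP2 (5 and 6 against 15 and 19) rose by 2.61 and 1.66 from very low levels, and the call of RASGRP2 was lost without any 1 of the 4 libraries (1.43 to 1.87). Of 8 GTPase-activating protein genes tested, 4 rose and 0 fell in edgeR (3 and 0 in DESeq2), and 1 (DAB2IP, log2 fold change -0.17) was lower at an unadjusted p under 0.05. With the replicate block, with the GC trend removed and without the second shUBXN1 library, 1 of these genes was called lower. RASA3 rose from 25.9 and 26.2 CPM to 39.9 and 36.6 CPM (log2 fold change 0.55), and NF1, which encodes neurofibromin, rose by 0.39, a call lost without the second shCon library (0.30). Without that library 1 of the 8 passed. Scaffold genes gave 3 higher and 2 lower of 10 tested, with a median log2 fold change of 0.084 that was 0.0090 with the GC trend removed. CNKSR1 rose by 2.23 from 5 and 7 counts to 27 and 28, PPP1CB rose by 0.34, PPP1CC fell by 0.47, and PEBP1, the RAF kinase inhibitor protein, fell by 0.30. Without the second shCon library 2 of the 10 passed, PPP1CB (0.33) and PEBP1 (-0.32) being among those lost.

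The genes whose levels were most like those of PHLDA1, the member with the largest change, were HLCS, TKT and MRPL12. After centring log2 CPM on each gene's mean, they differed from PHLDA1 by a root-mean-square of 0.00425, 0.00715 and 0.00879 over the 4 libraries. With so few libraries such likeness is common, and 247 of 16862 genes lay within 0.05.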

How the data were processed

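RNA of MHCC97H cells, in 2 shCon and 2 shUBXN1 libraries, was sequenced in paired ends. By the study's methods the authors aligned the reads to GRCh38 with Hisat2. The submitters' processing notes list HISAT2 2.0.4, StringTie 1.3.0 and GRCh37. The counting tool, annotation release and use of strand are not given in the sources used here. The authors deposited expected counts (estimated counts, not all whole) per Ensembl gene, without normalization, with a gene length in bases. Of the values above 0, 62.4% to 64.6% were whole to within a tolerance of 1e-06.

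Of 61541 gene IDs, 99.7% matched a symbol. Positions, exons and GC content were taken from GENCODE 44 on GRCh38. Counts were rounded, filtered with filterByExpr, scaled (TMM) and fitted in edgeR 4.0.16 (R 4.3.3) with its quasi-likelihood functions glmQLFit and glmQLFTest, with Benjamini-Hochberg adjustment over the 16863 genes tested. Standard errors are the log2 fold change over the square root of F, and 95% intervals use the test's degrees of freedom. The biological coefficient of variation was 0.0711. Replicates differed by more than sampling noise (chi-square over degrees of freedom 3.83 for shCon and 8.48 for shUBXN1). The labels do not say that cultures were separate, so p-values rest on the spread between these libraries. For each gene edgeR estimates that spread with information shared across genes. TPM was computed with the deposited length. Alternatives used DESeq2 1.42.0, limma 3.58.1, other scalings and filters, a replicate block, and leaving out each library.

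The members, pathway lists, tests and the rule for named genes (the members, the genes of the core lists, and up to 2 of the largest rises and falls in each other list) were chosen with earlier results of these data known. FOSL1, KLF2, PHLDA2, MYC, LIF and DAB2IP were named after their values were seen. Promoter windows are RefSeq's. Some genes of the pathway are not reported here, and the list counts leave them out.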

Additional observations from a re-analysis of the deposited data

How the results depend on the processing

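The number of members past an adjusted p of 0.05 was 5, and 3 to 6 when 1 library was left out, with 3 without the second shCon library. Each such fit leaves 1 library in a group. Without the second shCon library fewer of all genes passed too, both as higher and as lower. The lower count there, for the members and for the pathway genes below, is therefore no result about them. No member reached a fold change of 2 with any library left out. With all 4 libraries, 2 members passed a fold change of 1.5 at an unadjusted p under 0.05 in edgeR. Of the 16863 genes tested, 3201 passed it as higher and 2435 as lower. The pathway genes outside the members that passed numbered 45 of 67 tested, beside 56.2% of all genes, and 28 to 46 with 1 library left out, the lowest without the second shCon library. UBXN1 stayed between -2.13 and -1.94 with 1 library left out. The ratio of the summed level of the 9 members was 0.848 in TPM and 0.807 in CPM, and the use of annotated exon bases was added after the data were seen. Signs turned for DUSP6 (0.028 with limma on log2(TPM + 1), 0.028 with log2(TPM + 0.1), 0.054 with total count scaling), for DUSP7 (-0.046 after removal of the GC trend and -0.048 with the block added) and for NRAS (-0.070 to 0.084 with 1 library left out), and the cause was not tested. Of 144 values for members under the alternatives, 127 kept their direction and side of the threshold, 7 lost the threshold, 5 gained it and 5 changed sign. Replicate numbers do not pair the samples by the labels, and deviations of same-numbered libraries correlated at 0.039. With a replicate block 6 members and 49 other pathway genes passed, beside 5000 genes higher and 5023 lower of 16863. With the block and GC removal these were 6 and 50, beside 4211 higher and 5710 lower of 16830. With 2 libraries per group the spread rests on few degrees of freedom, and an exact permutation test could not go below p = 0.333.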
